A study of Mus musculus with 37 samples.

Results

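Sox factors are transcription factors that bind and bend DNA through a shared HMG box. Here 10 Sox genes were followed in embryonic mouse hearts that carry, by their labels, 1 or 2 functional alleles of Nipbl and of Isl1. They were taken by symbol from a table of 25239 genes: Sox2, Sox3, Sox4, Sox5, Sox6, Sox7, Sox9, Sox11, Sox17 and Sox18. Sox3 was noticed because it was lower in hearts lacking 1 Nipbl allele than in wild-type hearts, so it was chosen by the counts of that comparison, whose values are given as a description. All 10 passed the filter on low counts, as did 15046 genes in all. A further 10 Sox genes stand in the table, and 5 of them passed.

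The hearts came from embryos at stage E10.5 and were sequenced in bulk, paired-end, as 37 libraries. Males carrying Stra8-iCre and 1 Nipbl Flox allele, whose sperm hold either Nipbl Flox, a functional allele, or Nipbl FIN, a null allele, were crossed with Isl1 Cre/+ females, in which Cre occupies 1 Isl1 allele and makes them haploinsufficient for Isl1. The groups are wild-type (Nipbl +/+; Isl1 +/+; n = 10), Isl1_het (Isl1 +/-; n = 9), Nipbl_het (Nipbl +/-; n = 9) and double_het (Nipbl +/-; Isl1 +/-; n = 9). All 4 groups therefore share a Cre-carrying father and mother, and the Isl1_het and double_het embryos carry the Isl1 Cre allele. Whether that Cre acted on a Nipbl Flox allele was not tested; mean Nipbl was 61.5 CPM (counts scaled to a common library total, after TMM scaling) in Isl1_het and 60.0 in wild-type. Nipbl encodes a cohesin loader, and Isl1 a LIM-homeodomain factor of second heart field progenitors.

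Depth was 23.4 to 51.0 mega-counts per library, with a median of 36.2 mega-counts. All 13 cardiomyocyte markers passed the low-count filter, and their summed level was 33580 to 53390 CPM over the 37 libraries. Nipbl averaged 39.3 ± 13.8 CPM (SD, n = 9) in Nipbl_het and 38.1 ± 7.41 (SD, n = 9) in double_het. Isl1 averaged 7.37 ± 2.24 CPM in wild-type, 6.28 ± 1.76 in Isl1_het, 13.0 ± 2.82 in Nipbl_het and 9.50 ± 3.51 in double_het. Against wild-type, Isl1 counts did not bear out the Isl1 +/- labels: the log2 change from wild-type was -0.20 in Isl1_het (SE 0.18, edgeR adjusted p 0.877) and 0.32 in double_het (SE 0.20, edgeR adjusted p 0.591). Isl1 in double_het differed from Isl1_het by 0.52 (SE 0.20, unadjusted p 0.0145, edgeR adjusted p 0.379), and from Nipbl_het, where the Nipbl genotype is matched, by -0.47 (SE 0.19, unadjusted p 0.0223, edgeR adjusted p 0.518), the direction of the label. Nipbl_het exceeded wild-type in Isl1 by 0.79 (SE 0.19, edgeR adjusted p 0.0252). Which part of the Isl1 transcript the Cre allele leaves is not given in the sources used here. The library labelled Nipbl_het replicate 2 stood apart: its Nipbl level was 72.4 CPM against at most 44.9 in the other 8 of its group, and it lay at 114 on the first principal component, which held 23.9% of the variance. Without it, Nipbl averaged 35.2 ± 6.34 CPM (SD, n = 8) in Nipbl_het. Sox3 changes that use it are given with and without it. The set number is the number that the labels give after the letters IVF, which they do not explain. Set 1 holds only wild-type and Isl1_het libraries, and set 7 only double_het replicate 2. Its set term absorbs that library, which leaves 8 libraries behind each double_het change. The labels do not say which embryos shared parents or a litter, so p-values measure the spread between these libraries.

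Sox factors are sorted into groups by the sequence of the HMG box. SoxB1 factors, Sox2 and Sox3, hold neural and other progenitors in an undifferentiated state. SoxC factors, Sox4 and Sox11, act in outflow tract and mesenchymal progenitors, and Sox9, of the SoxE group, acts in the mesenchyme of the cardiac cushions and in cartilage, where the SoxD factors Sox5 and Sox6 work beside it. SoxF factors, Sox7, Sox17 and Sox18, act in endothelium and endocardium.

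The coding sequence of the HMG box is shown for Sox3, on which the results turn, and for Sox2, its nearest relative among the members. In the Sox3 line, capitals mark bases identical to Sox2 at the same place in the box; in the Sox2 line, capitals mark bases identical to Sox3. Each stretch has 237 bases, is written 5′ to 3′ on the coding strand and was read from GENCODE M21 transcripts (GRCm38).
Sox3: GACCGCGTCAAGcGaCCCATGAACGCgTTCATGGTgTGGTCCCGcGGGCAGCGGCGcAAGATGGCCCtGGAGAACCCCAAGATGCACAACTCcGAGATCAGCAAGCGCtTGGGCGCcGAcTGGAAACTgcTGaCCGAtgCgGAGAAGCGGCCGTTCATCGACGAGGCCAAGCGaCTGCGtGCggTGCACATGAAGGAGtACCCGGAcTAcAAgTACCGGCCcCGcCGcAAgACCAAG
Sox2: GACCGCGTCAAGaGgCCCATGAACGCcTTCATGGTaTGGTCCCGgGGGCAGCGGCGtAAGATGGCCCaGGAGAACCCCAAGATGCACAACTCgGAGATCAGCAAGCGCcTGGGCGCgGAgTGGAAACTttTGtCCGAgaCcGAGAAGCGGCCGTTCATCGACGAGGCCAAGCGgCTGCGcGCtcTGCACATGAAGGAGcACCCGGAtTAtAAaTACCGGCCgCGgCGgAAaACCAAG
The Sox3 box lies at chrX:60892771-60893007 on the minus strand and the Sox2 box at chr3:34650536-34650772 on the plus strand, each within a single exon. Sox2 shares 208 of the 237 bases with Sox3, or 87.8%. Identity with the Sox3 box was 69.6% for Sox4, 69.2% for Sox9 and for Sox11, 66.2% for Sox17, 65.8% for Sox7 and for Sox18, 61.6% for Sox5 and 60.3% for Sox6. The longest run shared by the Sox2 and Sox3 transcripts was 32 bases. Sox3 is a gene of 1 exon, 2065 bases long, at chrX:60891366-60893430 on the minus strand, and no other annotated exon overlaps it. Exons of Sox4, Sox5 and Sox17 overlap an opposite-strand gene, Gm26735, Sox5os1 and Gm37587, over 2616, 1330 and 804 bases. The strand setting of the counting is not given in the sources used here, so counts of these 3 genes may hold reads of the partner.

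Levels of the members in wild-type hearts spanned a wide range once divided by the length of their joined exons. Sox4 was highest at 32.0 ± 5.77 CPM per kb (SD, n = 10). Sox18 (10.1 ± 1.30), Sox9 (9.39 ± 1.12) and Sox11 (7.16 ± 0.920) followed, and Sox18 and Sox9 did not differ beyond their spread. Sox3, at 4.92 ± 1.13, and Sox7, at 4.00 ± 0.684, did not differ beyond theirs. Sox6 (0.970 ± 0.162) and Sox17 (0.929 ± 0.0924) stood side by side, with lower levels of Sox5 (0.362 ± 0.0660) and Sox2 (0.188 ± 0.137). For Sox5, Sox6 and Sox17 the length joins the exons of several transcripts, which lowers the value per kb. Among the other Sox genes, Sox12, the remaining SoxC gene, reached 38.1 ± 3.37 CPM per kb, above every member. Sry, the sex-determining gene, had 0 counts in every library, and Sox1, Sox14, Sox15 and Sox21 did not pass the filter.

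Sox3 was lower in both genotypes that lack 1 Nipbl allele. In CPM, its lowest, median and highest values were 6.81, 10.4 and 13.5 in wild-type, and 6.51, 9.27 and 12.1 in Isl1_het. The same values were 3.06, 5.48 and 6.23 in Nipbl_het, and 4.29, 5.89 and 7.64 in double_het. Counts behind these values ran from 112 to 642 reads per library. Means were 10.2 ± 2.34 (SD, n = 10), 9.30 ± 1.52 (SD, n = 9), 5.27 ± 0.973 (SD, n = 9) and 5.98 ± 1.07 (SD, n = 9) in the same order, and 5.55 ± 0.543 (SD, n = 8) in Nipbl_het without the library labelled replicate 2. The ranges of Nipbl_het and wild-type did not overlap, and those of double_het and Isl1_het overlapped through the lowest Isl1_het library, replicate 8. In bulk hearts, fewer cells that express Sox3 and less Sox3 RNA per cell cannot be told apart.

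**Figure D1:**
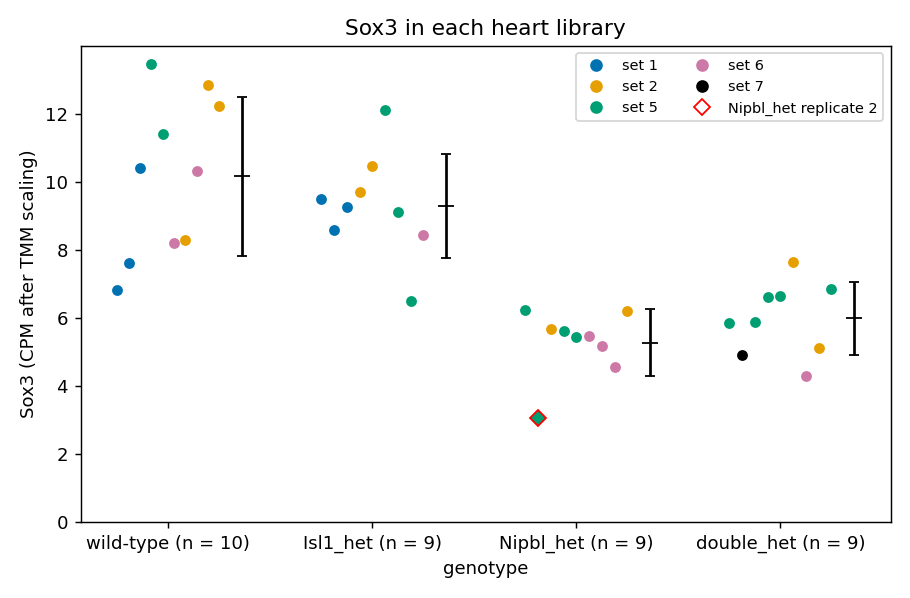
Sox3 level in CPM after TMM scaling (vertical axis) for each library by genotype (horizontal axis), colored by set, with the mean and SD beside each group and the library labelled Nipbl_het replicate 2 as a red-edged diamond. All 9 Nipbl_het libraries lie between 3.06 and 6.23 CPM, below the lowest wild-type library at 6.81, and the 9 double_het libraries lie between 4.29 and 7.64.

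The test on Sox3 was made between double_het and Isl1_het, a comparison of Nipbl dosage in hearts that are all labelled Isl1 +/-. These 2 groups were used because they share no library with the comparison in which Sox3 was noticed. The wild-type and Nipbl_het libraries still enter the fit through the set terms and the shared estimate of the spread. Set 1 holds no double_het library, so its 3 Isl1_het libraries bear on the change only through the wild-type libraries of set 1. The test is therefore not fully independent of that choice. Sox3 was below the Isl1_het mean in 9 of 9 double_het libraries and below every Isl1_het library in 5 of 9. It fell by 0.69 on the log2 scale (SE 0.14, 95% interval -0.98 to -0.41) to 61.9% of the Isl1_het level, with an adjusted p of 0.00882 by edgeR's quasi-likelihood test with Benjamini-Hochberg adjustment over 15046 genes. Of the 10 members, Sox3 was the 1 that passed, beside 0.957% of all genes tested and 0.425% in the lower direction. The median log2 change was 0.07 over the members and 0.00 over all genes. Without the library labelled Nipbl_het replicate 2, which is in neither group but enters the fit through the term for set 5 and the shared estimate of the spread, the change was -0.70 with an adjusted p of 7.21e-04 (edgeR).

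The difference had the same direction in each set that held both groups. As a difference of mean log2 CPM, it was -0.68 in set 2 (2 libraries against 2), -0.49 in set 5 (5 against 3) and -0.97 in set 6 (1 against 1). The call rested on the sets together: leaving out set 2, 5 or 6 gave changes of -0.71, -0.83 and -0.67 with edgeR adjusted p-values of 0.116, 0.0782 and 0.054. Among the 37 fits that each left out 1 library, the change ran from -0.78 to -0.62 and passed in all 37, with a highest edgeR adjusted p of 0.0456. Of these fits, 10 left out a wild-type and 9 a Nipbl_het library, which are in neither group. Another 1 left out double_het replicate 2, which its own set term absorbs.

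In the comparison in which Sox3 was noticed, the fitted log2 change of Nipbl_het from wild-type was -0.97 (SE 0.13), and -0.90 without the library labelled Nipbl_het replicate 2. All 9 Nipbl_het libraries were below every wild-type library, an arrangement that 0.0399% of genes tested showed. Of the members 1, Sox3, passed in this comparison, beside 1.71% of all genes, and nothing is read from that count. The double_het libraries differed from the same wild-type libraries by -0.81 (SE 0.14), with 7 of 9 below every wild-type library. Within sets 2, 5 and 6, Nipbl_het minus wild-type was -0.87, -1.32 and -0.86 (-1.10 in set 5 without the library labelled Nipbl_het replicate 2), and double_het minus wild-type was -0.80, -0.96 and -1.09.

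For the Isl1 +/- label alone, the Sox3 change was not separable from 0. Isl1_het differed from wild-type by -0.12 (SE 0.12, 95% interval -0.37 to 0.13, edgeR adjusted p 0.886). The double_het hearts differed from Nipbl_het by 0.16 (SE 0.14, 95% interval -0.11 to 0.44, edgeR adjusted p 0.746), and by 0.05 without the library labelled Nipbl_het replicate 2. These comparisons reuse the wild-type and the Nipbl_het libraries. The interaction, which is the departure of double_het from the sum of both single changes, was 0.28 (SE 0.18, 95% interval -0.09 to 0.65, edgeR adjusted p 0.999), and 0.20 without that library. None of the 10 members passed in these 3 comparisons with edgeR or DESeq2, beside 0% of all genes with edgeR; 0, 1 and 0 members had an unadjusted edgeR p under 0.05 in Isl1_het against wild-type, double_het against Nipbl_het and the interaction, where 886, 1355 and 411 genes of all tested did, and DESeq2 called 11, 0 and 0 genes.

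Sox3 lies on the X chromosome, and the embryos were of both sexes by Xist, the RNA that silences one X in females. Of the 37 libraries, 26 had Xist above 10 CPM and 11 below. Median Sox3 in libraries above and below that level was 10.4 and 8.28 CPM in wild-type, and 9.27 and 9.06 in Isl1_het. It was 5.63 and 5.46 CPM in Nipbl_het, and 5.89 and 5.99 in double_het. With Xist as a covariate the double_het change from Isl1_het was -0.69 with an edgeR adjusted p of 0.0112. Among the libraries with Xist above 10 CPM, a restriction chosen after the data were seen, it was also -0.69, with an edgeR adjusted p of 0.109. The 6 nearest tested genes on the X chromosome, 3 on either side, did not pass in double_het against Isl1_het. Slitrk4, one of them, differed by -0.44 (SE 0.15, edgeR adjusted p 0.218).

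Sox2, the other SoxB1 member, was near the limit of detection, with 2 to 56 counts per library. Its lowest, median and highest levels were 0.0594, 0.332 and 0.820 CPM in wild-type, and 0.227, 0.422 and 0.694 in Isl1_het. They were 0.112, 0.264 and 0.498 in Nipbl_het, and 0.226, 0.506 and 1.40 in double_het. All 4 ranges overlapped. The log2 change of double_het from Isl1_het was 0.14 (SE 0.35, 95% interval -0.57 to 0.85). It was -0.15 without double_het replicate 6, the library with 1.40 CPM, and -0.12 without set 2. Against Nipbl_het, the double_het change was 1.08 (SE 0.34), with 8 of 9 libraries above the Nipbl_het mean, an unadjusted p of 0.00321 and an edgeR adjusted p of 0.413.

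A list of 20 partners and targets of SoxB1 factors in neural and placodal tissue, among them Pou3f1 and Pax6, had 12 genes tested. None of the 12 passed in double_het against Isl1_het (edgeR), and their median log2 change was 0.09. Among the 12, Pou3f2 had the lowest change, at -1.08 (SE 0.55, edgeR adjusted p 0.692). Pou3f1, a POU factor of neural progenitors, differed by 0.91 (SE 0.30, edgeR adjusted p 0.218), and Pax6, an eye and neural factor, by 0.70 (SE 0.26, edgeR adjusted p 0.351). In Nipbl_het against wild-type 2 of the 12 were higher, Pou3f1 (1.09, SE 0.28) and Pax6 (0.93, SE 0.23), beside 1.71% of all genes tested, and in double_het against wild-type none passed.

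Markers of other tissues that could lie next to the heart were counted beside the Sox3 result. Of 16 neuron and neural crest markers 10 were tested and none passed in double_het against Isl1_het (edgeR); the summed level of the 16 was 115 to 133 CPM in Isl1_het and 115 to 153 in double_het, and Foxd3 had 0 counts in 9 of 9 double_het and 8 of 9 Isl1_het libraries. Of 12 surface ectoderm markers 7 were tested and 1 passed: Krt14, a basal keratin, rose by 1.55 on the log2 scale (SE 0.31, edgeR adjusted p 0.00721), from 0.663 ± 0.354 CPM (SD, n = 9) to 1.94 ± 0.927 (SD, n = 9). Of the other 6 tested, 5 had negative changes, led by Perp, an epidermal junction gene (-0.36, SE 0.09, edgeR adjusted p 0.0568), and the median of the 7 was -0.33. The summed level of the 12 was 71.5 to 95.9 CPM in Isl1_het and 52.4 to 78.1 in double_het. Perp alone made up most of that sum, at a mean of 61.3 CPM in Isl1_het and 47.6 in double_het. In the same order, Trp63 had medians of 0.0306 and 0.0754 CPM, and Krt5 of 0.0542 and 0.0538. Of 18 endoderm markers 7 were tested and none passed (median 0.65), with summed levels of 219 to 368 CPM in Isl1_het and 317 to 782 in double_het. Foxa2 had a median of 0.0845 CPM and a maximum of 0.136 in Isl1_het, and 0.135 and 1.78 in double_het. Epcam had medians of 0.478 and 0.525 CPM in the same order, and Shh, Nkx2-1 and Pax9 had medians of 0 in both groups. These 5 genes made up little of the sums. Of 8 epicardial markers, 1 passed: Wt1, an epicardial transcription factor, rose by 0.54 (SE 0.08, edgeR adjusted p 9.53e-05). The median over the 8 was 0.31, and the summed level was 308 to 554 and 520 to 676 CPM. Without set 5, neither Krt14 (1.45) nor Wt1 (0.45) passed, nor did Krt14 without set 2. In Nipbl_het against wild-type, Krt14 (1.51) and Wt1 (0.31) were also higher (edgeR adjusted p 0.00331 and 0.0178). In double_het against wild-type, Krt14 was higher (1.74, edgeR adjusted p 6.38e-04) and Perp lower (-0.38, edgeR adjusted p 0.0198). In double_het against wild-type, 5 of the 8 epicardial markers were higher, Wt1 (0.53), Tbx18 (0.38), Upk3b (0.72), Upk1b (0.38) and Sema3d (0.73), beside 2.6% of all genes tested, with a median of 0.49 and summed levels of 262 to 464 CPM in wild-type and 520 to 676 in double_het. The part of these cells in the Sox3 and Sox17 differences was not tested.

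Neither SoxC member passed in double_het against Isl1_het. Sox4 had medians of 153, 146, 150 and 143 CPM in wild-type, Isl1_het, Nipbl_het and double_het, over a range of 104 to 250 in all. Sox11 had medians of 56.1, 58.6, 56.9 and 57.2 CPM, over a range of 48.0 to 80.4. The double_het change from Isl1_het was -0.05 for Sox4 (SE 0.11, 95% interval -0.28 to 0.18) and 0.03 for Sox11 (SE 0.09, 95% interval -0.16 to 0.21). Both intervals exclude a change as large as that of Sox3. Both genes varied with set number (edgeR adjusted p 0.0465 for Sox4 and 0.0244 for Sox11), as did Sox2 (0.0346), and Sox3 did not pass (0.188). Of 9 listed SoxC targets, all tested, none passed in double_het against Isl1_het (edgeR), and their median log2 change was 0.03.

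The SoxD pair and Sox9 did not pass either. Sox5 had medians of 5.08, 6.03, 6.35 and 6.76 CPM in wild-type, Isl1_het, Nipbl_het and double_het, and Sox6 had medians of 15.1, 15.4, 17.0 and 18.9. Sox6 represses embryonic globin genes in red cells, and both SoxD factors support Sox9 in cartilage. The double_het ranges reached from 5.54 to 7.72 CPM for Sox5 and from 14.6 to 22.2 for Sox6, and overlapped the other groups. Their double_het changes from Isl1_het were 0.13 (SE 0.12) for Sox5 and 0.14 (SE 0.16) for Sox6. From wild-type, the double_het change of Sox5 was 0.29 (SE 0.12, 95% interval 0.05 to 0.53, edgeR adjusted p 0.267). That of Sox6 was 0.22 (SE 0.16, edgeR adjusted p 0.648), and for both genes 9 of 9 double_het libraries were above the wild-type mean. Without the library labelled Nipbl_het replicate 2, Sox5 passed in that comparison (edgeR adjusted p 0.0418). In that library Sox5 and Sox6 reached 10.1 and 40.6 CPM, and without it the Nipbl_het mean of Sox6 moved from 18.3 to 15.6 CPM. Of 13 globin and erythroid genes 11 were tested and none passed in double_het against Isl1_het (edgeR), while their summed level ran from 548 to 106800 CPM over all libraries.

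Sox9 had medians of 39.8, 39.7, 39.8 and 42.7 CPM in wild-type, Isl1_het, Nipbl_het and double_het, and its double_het change from Isl1_het was 0.11 (SE 0.12, 95% interval -0.14 to 0.36). Of 14 listed cushion and cartilage targets of Sox9, 13 were tested and 1 passed in double_het against Isl1_het: Acan, the cartilage proteoglycan aggrecan, fell by 1.59 on the log2 scale (SE 0.29, edgeR adjusted p 0.00283). Its levels were low, at 1.71 ± 0.588 CPM (SD, n = 9) in Isl1_het and 0.627 ± 0.231 (SD, n = 9) in double_het. The median log2 change of the 13 genes was 0.13. Without set 2 or set 5, Acan changed by -1.52 and -1.57 and did not pass (edgeR adjusted p 0.101 and 0.398). Acan was also lower in Nipbl_het against wild-type (-1.19, edgeR adjusted p 0.0162) and in double_het against wild-type (-1.54, edgeR adjusted p 0.00183). None of 12 cushion mesenchyme markers passed in double_het against Isl1_het (edgeR), and 1, Pdgfra, was higher in double_het against wild-type (0.43, edgeR adjusted p 0.0483).

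**Figure D2:**
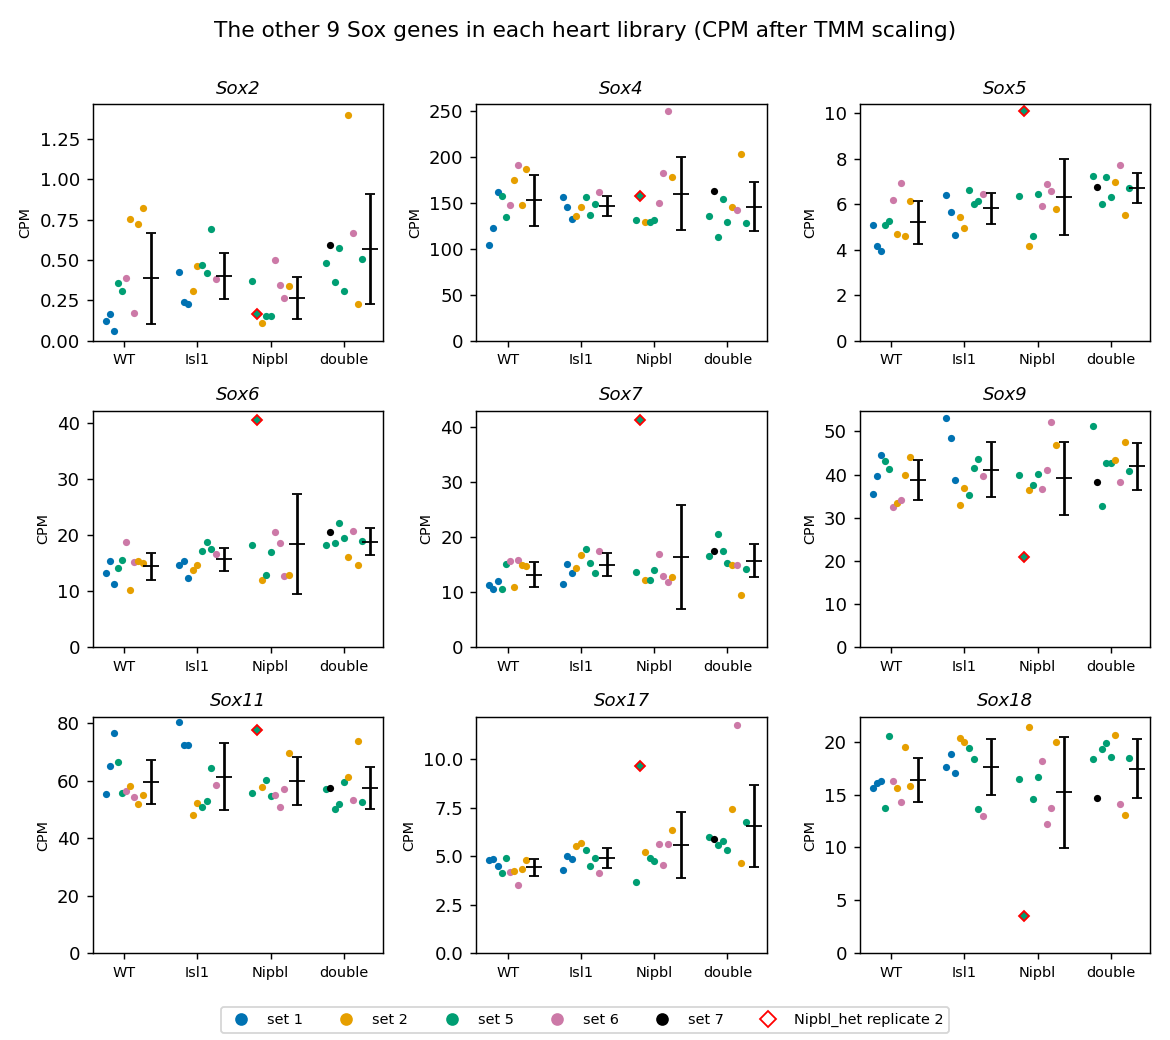
CPM after TMM scaling (vertical axes, each from 0) of the other 9 members in each library by genotype (horizontal axes; WT is wild-type, Isl1 Isl1_het, Nipbl Nipbl_het and double double_het), colored by set, with the mean and SD beside each group. The red-edged diamond, the library labelled Nipbl_het replicate 2, is the highest of its group for Sox5, Sox6, Sox7, Sox11 and Sox17 and the lowest for Sox9 and Sox18.

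Among the SoxF members, Sox17 was higher in double_het than in wild-type, while Sox7 and Sox18 did not pass. Sox17 acts in endothelium and in definitive endoderm. Its lowest, median and highest levels were 3.53, 4.42 and 4.91 CPM in wild-type, and 4.15, 4.92 and 5.66 in Isl1_het. They were 3.70, 5.20 and 9.64 in Nipbl_het, and 4.64, 5.87 and 11.8 in double_het. In double_het, 8 of 9 libraries were above every wild-type library and 6 of 9 above every Isl1_het library. Against Isl1_het the change was 0.45 (SE 0.16, 95% interval 0.13 to 0.78), with an unadjusted p of 0.00805 and an edgeR adjusted p of 0.272, so Sox17 did not pass in that comparison. Without double_het replicate 7, that change was 0.26. With all libraries, the double_het change from wild-type was 0.61 (SE 0.16, edgeR adjusted p 0.0289).

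The Sox17 call against wild-type rested on single libraries. Of the 10 members 2, Sox3 and Sox17, passed in double_het against wild-type, beside 2.6% of all genes. Without double_het replicate 7, the library with 11.8 CPM, the Sox17 change was 0.38 with an edgeR adjusted p of 0.207, and over the 37 fits that each left out 1 library the adjusted p ran from 0.00256 to 0.207. It also missed the threshold without wild-type replicate 4, 6 or 8 (0.61, 0.59 and 0.55) and without double_het replicate 6 or 9 (0.59 and 0.59). Within sets 2, 5 and 6 the double_het difference from wild-type was 0.40, 0.38 and 1.60 in mean log2 CPM, and replicate 7 is the only double_het library of set 6. In Nipbl_het, Sox17 averaged 5.59 ± 1.70 CPM (SD, n = 9), and 5.09 ± 0.812 (SD, n = 8) without the library labelled Nipbl_het replicate 2. Its fitted log2 change in Nipbl_het from wild-type was 0.35 (SE 0.16), and 0.20 without that library.

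Sox7 had medians of 13.4, 15.1, 13.0 and 15.3 CPM in wild-type, Isl1_het, Nipbl_het and double_het, and Sox18 had medians of 15.9, 18.3, 16.5 and 18.4. Both genes act in vascular endothelium, and Sox18 also in lymphatic precursors. Their double_het changes from Isl1_het were -0.10 for Sox7 (SE 0.19, 95% interval -0.49 to 0.28) and 0.04 for Sox18 (SE 0.19, 95% interval -0.35 to 0.42). The library labelled Nipbl_het replicate 2 held the extremes of both, 41.3 CPM of Sox7 and 3.50 CPM of Sox18. All 16 listed SoxF targets and all 16 endothelial and endocardial markers were tested, and none passed in double_het against Isl1_het (edgeR), with median log2 changes of -0.02 and 0.03. The summed endothelial level was 1213 to 1664 CPM in Isl1_het and 1314 to 1744 in double_het. Against wild-type, where Sox17 passed, none of the 16 endothelial markers passed in double_het either (edgeR), with a median of 0.13 and a summed level of 1181 to 1528 CPM in wild-type. The part of endothelial cells in the Sox17 difference was not tested.

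**Figure D3:**
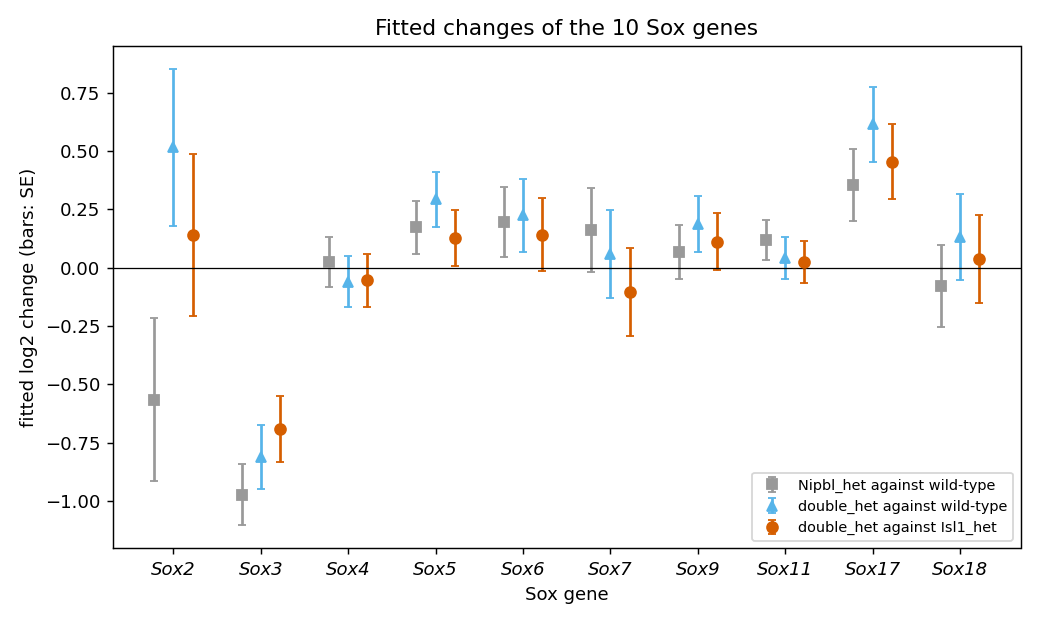
Fitted log2 change (vertical axis, bars show the SE) of the 10 members (horizontal axis) in Nipbl_het against wild-type (squares), double_het against wild-type (triangles) and double_het against Isl1_het (circles), where the first pair of comparisons share the wild-type libraries. Sox3 lies at -0.97, -0.81 and -0.69, and Sox17 at 0.35, 0.61 and 0.45.

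Members were also compared over the variation that genotype and set leave, as Pearson r of residual log2 CPM. This is a description over 36 libraries, with no test, and all genes of a library share its depth and RNA quality. Ivd, an enzyme of leucine breakdown, was most like Sox3 (r 0.80), followed by Gna11, a G protein subunit (0.77), 1600014C10Rik (0.76), Gimap1 (0.76), Ppp1r3f (0.76), Col23a1 (0.74), Zadh2 (0.74) and Cavin1 (0.74). Without the library labelled Nipbl_het replicate 2, r for Ivd was 0.69 over 35 libraries, and 3 of the 8 genes, Ivd, Gna11 and 1600014C10Rik, were still among the 8 most alike, with Mkrn3 first (0.70). The residual r of Sox3 with Nipbl was -0.51 with that library and -0.11 without it, and with Isl1 it was -0.23 and -0.32.

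Covariation among the members also changed with that library. Of 45 pairs 26 had a positive r with it and 30 without it, and 14 pairs changed sign. Sox7 and Sox18, both SoxF, went from -0.50 to 0.73, and Sox3 and Sox18 from 0.66 to 0.41. Sox6 and Sox7 went from 0.78 to 0.42, while the SoxC pair, Sox4 and Sox11, was at 0.55 in both. Sox4 and Sox9 went from 0.43 to 0.72. Sox3 and Sox2, the SoxB1 pair, had r of 0.16 with it and 0.14 without it.

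For the other members the most similar genes also differed in how far they relied on that library. Lmo4 and Ppp3ca were most like Sox4, with r of 0.89 and 0.88 over all libraries and 0.90 and 0.88 without it. Spats2 and Dkk3 were most like Sox7, with 0.96 and 0.94, and 0.87 and 0.85 without it. Rgs3 was most like Sox18 (0.94, then 0.77), Sel1l and Ccpg1 were most like Sox6 (0.91 and 0.90, then 0.75 and 0.73), and Zfhx3 and Foxp1 most like Sox11 (0.82 and 0.77, then 0.77 and 0.79). Gstm2 and Pea15a were most like Sox9 (0.85 and 0.84, then 0.71 and 0.68), Parp12 and Timp3 most like Sox5 (0.79 and 0.77, then 0.69 and 0.58), Tox and Chst15 most like Sox17 (0.71 and 0.71, then 0.52 and 0.50), and Zfp606 and Wnt9a most like Sox2 (0.59 and 0.58, then 0.61 and 0.59). Without that library, the most similar gene stayed the same for Sox4 and Sox7. Another gene took its place for Sox2, Sox5, Sox6, Sox9, Sox11, Sox17 and Sox18. For Sox6, Sox9, Sox11 and Sox17, neither gene named here stayed among the 2 most alike.

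**Figure D4:**
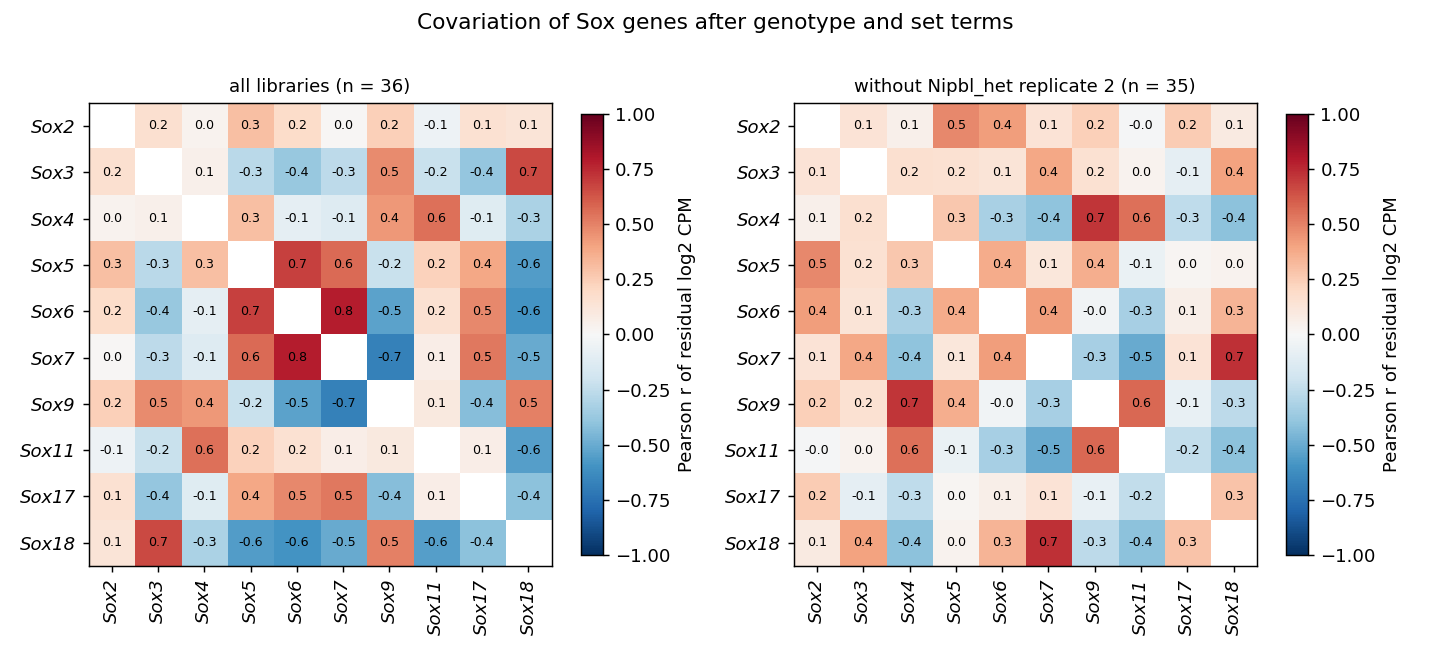
Pearson r of residual log2 CPM between members, after genotype and set terms, over all 36 libraries (left) and over 35 without the library labelled Nipbl_het replicate 2 (right); red is positive and blue negative. Sox7 and Sox18 turn from -0.50 to 0.73, and Sox4 and Sox11 stay at 0.55.

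Of the 5 other Sox genes tested, none passed in double_het against Isl1_het (edgeR). Their log2 changes were -0.10 (SE 0.20) for Sox8 and 0.31 (SE 0.23) for Sox10, both SoxE genes, 0.02 (SE 0.11) for Sox12, -0.04 (SE 0.15) for Sox13, a SoxD gene, and -0.33 (SE 0.25) for Sox30. Their median was -0.04.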

How the data were processed

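The authors deposited raw read counts per gene symbol for 37 libraries, whole numbers that were not normalized. The submitters' processing notes name STAR, featureCounts, GRCm38 and mm10, with no version, and 0 other value columns were present. Members and gene lists were chosen with earlier results of these data known.

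Low-count genes were dropped by genotype with filterByExpr, at a count minimum of 10 and a total of 15. The rest were scaled by TMM and fitted in R 4.3.3 with edgeR 4.0.16 (quasi-likelihood) and limma 3.58.1. Genotype and set number were factors in 1 fit of all 37 libraries. Tests were two-sided, with Benjamini-Hochberg adjustment over 15046 genes and a threshold of 0.05. The script was tested on simulated data. Log2 CPM used a prior count of 2. Rows at 0 in every library numbered 4273.

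Genes named were all Sox genes, Nipbl, Isl1, list members past the threshold in double_het against Isl1_het, defining markers, and the genes with the highest residual r, 8 for Sox3 and 2 for each other member, among genes whose log2 CPM averaged 1 or more. Slitrk4, a neighbour of Sox3, Mkrn3, Pou3f1, Pou3f2, Pax6, Perp, Tbx18, Upk3b, Upk1b, Sema3d and Pdgfra were named after their values were seen. A few items that these rules select are not reported here. The HMG box was found by its conserved peptide core in the longest GENCODE M21 transcript that holds it. Alternatives were no set term, a replicate block, DESeq2 1.42.0, RLE size factors, other filters, Xist as a covariate, leaving out sets or single libraries and, added after the data were seen, only libraries with Xist above 10 CPM. Depth of 23.4 to 51.0 mega-counts per library limits precision, and intervals for counts without molecular identifiers do not cover amplification error.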

Additional observations from a re-analysis of the deposited data

Results flagged for a closer look

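Libraries far from the rest of their group in 1 gene were looked for in 48 groups of 9 or 10 libraries, and 10 cases were found in 6 libraries; chance flags about 1 in 20 groups, and cases of 1 library are not independent. In each the gap to the next library was a large share of the whole range of the group. The library labelled Nipbl_het replicate 2 stood far above the rest of its group in 5 genes: 10.1 CPM of Sox5 (next 6.90), 40.6 of Sox6 (next 20.5), 41.3 of Sox7 (next 16.9), 9.64 of Sox17 (next 6.37) and 72.4 of Nipbl (next 44.9). Nipbl_het replicate 8 had 250 CPM of Sox4, and the next library 183 CPM. Among double_het libraries, replicate 6 had 1.40 CPM of Sox2 (next 0.668), replicate 7 had 11.8 CPM of Sox17 (next 7.44), and replicate 8 had 73.8 CPM of Sox11 (next 61.2). Wild-type replicate 7 had 13.0 CPM of Isl1, and the next library 8.81.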

How the results depend on the processing

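The Sox3 change of double_het from Isl1_het kept its direction in all 12 alternatives and all 37 fits without 1 library (-0.78 to -0.62, edgeR adjusted p 7.21e-04 to 0.0456). It missed the threshold, leaving 0 members called, without set 2 (-0.71), set 5 (-0.83) or set 6 (-0.67) and in libraries with Xist above 10 CPM (-0.69); adjusted p-values over the alternatives ran from 2.48e-04 (DESeq2) to 0.116. Replicate numbers did not pair libraries: 3 of 36 libraries were most alike to 1 of their own number, and mean residual r was 0.04 for a shared number and 0.16 for a shared set. With the replicate block in place of set number, Sox3 was at -0.65 (edgeR adjusted p 0.00224), Sox7 at 0.066, Sox11 at -0.083 and Sox18 at -0.031. Sox5 then passed in double_het against wild-type (0.40, edgeR adjusted p 0.0411), as it did without the library labelled Nipbl_het replicate 2 (0.31, edgeR adjusted p 0.0418). Changes near 0 turned sign in double_het against Isl1_het: without the set term Sox7 0.064, Sox11 -0.10 and Sox18 -0.010; without set 2 Sox2 -0.12, Sox7 0.0035 and Sox11 -0.13; without set 5 Sox4 0.053 and Sox18 -0.16; without set 6 Sox2 -0.0024; with Xist above 10 CPM Sox7 0.029 and Sox11 -0.023. Without single libraries Sox2 ran from -0.15 to 0.30, Sox11 from -0.048 to 0.064 and Sox18 from -0.015 to 0.11. Also reversed were Sox6 in Nipbl_het against wild-type (-0.040 without set 5, and -0.0084 to 0.25 without single libraries, lowest without the library labelled Nipbl_het replicate 2), Sox3 in double_het against Nipbl_het without set 5 (-0.020), and in the interaction Sox2 without set 2 (-0.10), Sox3 without set 5 (-0.0039) and Sox17 without set 6 (-0.091) or single libraries (-0.11 to 0.26). Members called in double_het against wild-type were 1 without set 1, 2 or 6 and with Xist above 10 CPM, and 1 to 3 without single libraries; Sox17 then changed by 0.64, 0.67, 0.37 and 0.62. Of the 8 genes most like Sox3, 3 remained without the library labelled Nipbl_het replicate 2 and 2 by Spearman rho. All-gene calls in double_het against Isl1_het were 144, with 73 to 361 without single libraries, 234 by DESeq2, 74, 22, 12 and 80 without sets 1, 2, 5 and 6, and 42 with Xist above 10 CPM. In Nipbl_het against wild-type they were 258, with 167 to 410 without single libraries, 467 without the set term, 459 by DESeq2, 118, 31 and 124 without sets 1, 2 and 5, and 85 with Xist above 10 CPM. In double_het against wild-type they were 391, with 244 to 839 without single libraries, 610 with the replicate block, 235, 113, 67 and 223 without sets 1, 2, 5 and 6, and 90 with Xist above 10 CPM. Leaving out a set removes libraries as well as a set; the cause of a lost call was not tested. Counts of 2 to 56 limit Sox2. In Isl1_het against wild-type calls went from 0 to 11 (DESeq2) and 0 to 2 without single libraries, and in double_het against Nipbl_het from 0 to 12 with Xist above 10 CPM. Krt14 missed the threshold without set 2 or 5 and with Xist above 10 CPM (1.45 to 1.53), and Wt1 without set 5 (0.45).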
